A study of Mus musculus with 12 samples.

Results

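The genes described here encode the proteins that write, copy, erase and read 5-methylcytosine, the methyl mark on CG dinucleotides of mouse DNA. They were chosen by name as Dnmt1, Uhrf1, Uhrf2, Dnmt3a, Dnmt3b, Tet1, Tet2, Tet3 and Mbd2, and are 9 of the 17365 genes of the count table. All 9 passed the expression filter, which kept 13312 genes, and the smallest count of any of them in any library was 33, for Dnmt3b.

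RNA-seq was performed on adult neural stem cells (NSCs) from the subventricular zone of wild-type mice aged 6 to 8 weeks, to find how different quiescent states differ in transcription. Proliferating NSCs were grown in EGF/FGF, with EGF and FGF2 at 10 ng/ml each. Quiescent NSCs had EGF withdrawn and received either BMP4 alone at 10 ng/ml (BMP, the dormant or d-qNSCs) or BMP4 and FGF2 at 10 ng/ml each (BMP/FGF, the primed or p-qNSCs). Each treatment lasted 3 days, in the ANS4 line from MF1 mice and the BL6 line from C57BL/6 mice, with 2 replicates per line and condition. All cultures were plated at low density below passage 10, on laminin in serum-free medium. Each strain is represented by 1 derived line, so strain and line cannot be told apart. Transcripts were measured, and neither the proteins nor the methylation of DNA were.

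Methylation of a CG site is diluted at each replication unless DNMT1 copies it to the daughter strand. UHRF1 recognises the site methylated on a single strand and brings DNMT1 to it, and UHRF2 is its close relative. DNMT3A and DNMT3B methylate sites that carried no mark, and DNMT3A is known to support neurogenesis in the postnatal subventricular zone. TET1, TET2 and TET3 oxidise the mark, which is then diluted by replication or replaced by base excision repair, and MBD2 binds methylated DNA and carries the repressive NuRD complex to it.

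The libraries held 18069052 to 19451818 estimated counts, and levels are given as CPM, the count of a gene scaled to a common library total with edgeR's TMM factors (0.972 to 1.03). All 9 listed NSC markers were called in BMP against EGF/FGF, 4 higher and 5 lower (median log2 -0.89), where 40.8% of all tested genes were higher and 38.8% lower. Their summed level was 5141 to 6161 CPM in BMP, 5516 to 6080 CPM in EGF/FGF and 6981 to 7354 CPM in BMP/FGF. The 5 astrocyte markers summed to 1364 to 1771 CPM in EGF/FGF, 3738 to 4801 CPM in BMP and 6635 to 6820 CPM in BMP/FGF. The 5 neuron markers summed to 11.4 to 15.5 CPM in EGF/FGF, 298 to 600 CPM in BMP and 90.2 to 99.4 CPM in BMP/FGF, with 2 of the 5 at 3 counts or fewer in every EGF/FGF library and Rbfox3 at no more than 4 counts in any BMP library. The oligodendrocyte lineage markers summed to 75.2 to 91.6 CPM, 235 to 279 CPM and 317 to 332 CPM in these conditions, and the ependymal markers to 62.9 to 78 CPM, 191 to 232 CPM and 196.5 to 209.6 CPM. Of 8 microglial markers, 5 were in the table and summed to at most 14.7 CPM, and the 4 endothelial and mural markers in the table summed to at most 7.71 CPM. In bulk RNA, fewer cells of a type and less RNA per cell cannot be told apart. Replicates of a group differed by more than counting noise, with 13.8 to 43.8% of genes at a chi-square p under 0.05 within a pair, and the widest pair was BL6 BMP.

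In BMP against EGF/FGF, 3 members were lower (Dnmt1, Uhrf1 and Uhrf2), 3 were higher (Dnmt3a, Tet1 and Mbd2) and 3 did not pass the test (Dnmt3b, Tet2 and Tet3). The test was edgeR's quasi-likelihood test with Benjamini-Hochberg adjustment over all tested genes, and a gene was called at an adjusted p (FDR) under 0.05. Over all genes tested, 38.8% were called lower and 40.8% higher in this comparison, so the number of members called is close to the background. Dnmt1 and Uhrf1 also passed the study's threshold of 1.5 on the log2 scale, a fall that 6.95% of all genes showed.

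In BMP/FGF against EGF/FGF, 5 members were lower (Dnmt1, Uhrf1, Uhrf2, Tet1 and Tet3) and 1 was higher (Mbd2). Dnmt3a, Dnmt3b and Tet2 did not pass. The background was 38.0% lower and 40.9% higher, and Dnmt1 and Uhrf1 again fell past the threshold, as did 6.08% of all genes. In BMP/FGF against BMP, 5 members were lower (Dnmt1, Uhrf1, Dnmt3a, Tet1 and Tet3) and 1 was higher (Mbd2), against a background of 21.3% lower and 20.1% higher. None of these 6 differences between the quiescent states reached 1.5 on the log2 scale. The 3 comparisons share libraries, so their values are given side by side and are not independent. In each comparison the 4 libraries of one condition did not overlap the 4 of the other for the 6 members called, and overlapped for the 3 not called. The share of all tested genes that separate in this way was not counted, so this only describes the members.

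**Figure D1:**
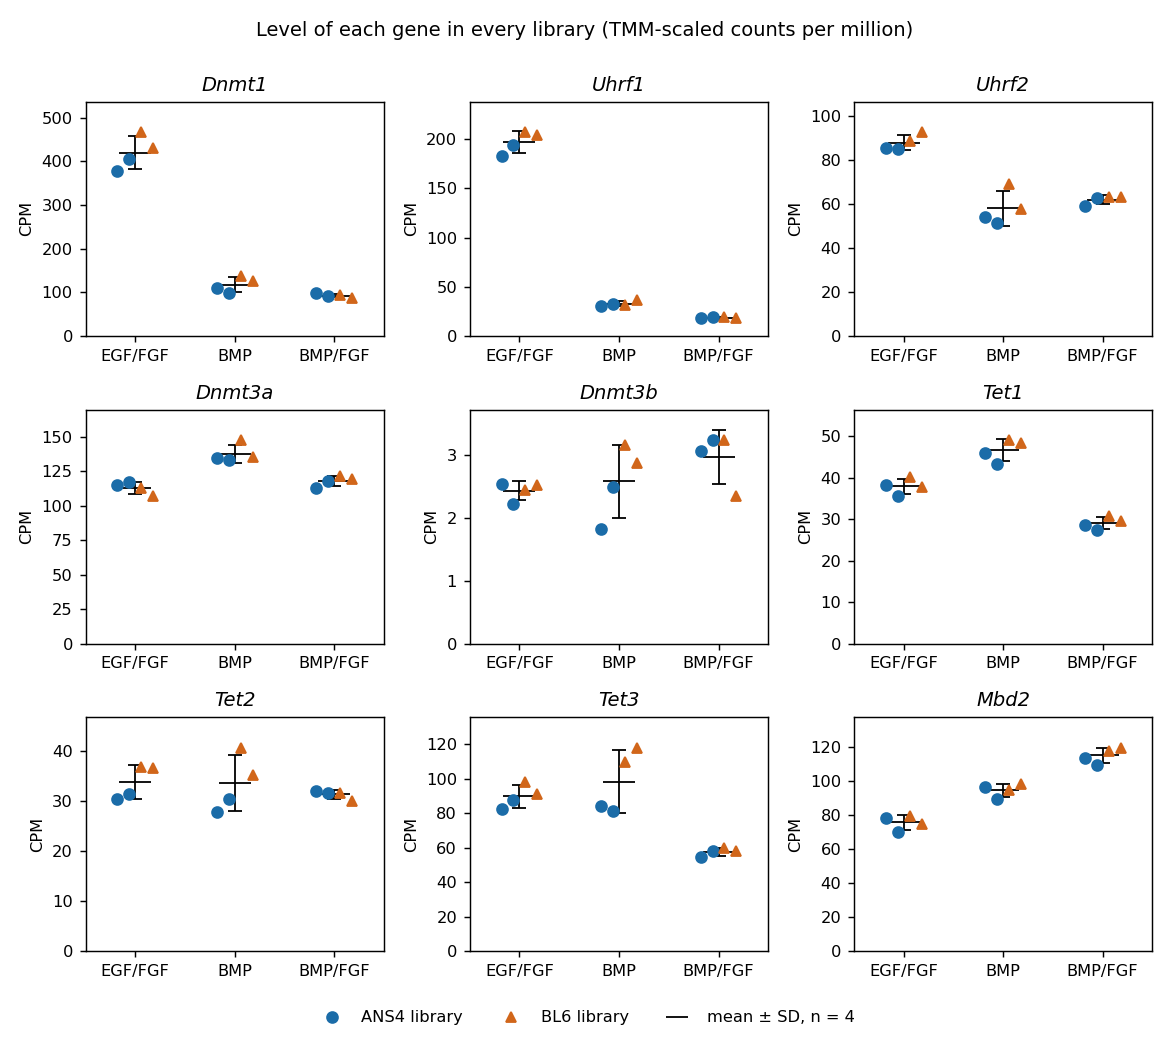
Level of each gene in CPM (vertical axis from 0) in every library by condition, with circles for ANS4, triangles for BL6 and black bars for the mean and SD of 4 libraries. Dnmt1 and Uhrf1 drop from EGF/FGF to both quiescent states, Tet1 and Tet3 are lowest in BMP/FGF, and Mbd2 is highest there.

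Dnmt1, the maintenance methyltransferase (chr9:20907209-20959888, minus strand, GRCm38), lost most of its transcript in quiescence. Its level in EGF/FGF was 378 and 405 CPM in the ANS4 replicates and 466 and 429.7 CPM in the BL6 replicates. In BMP it was 109 and 98.4 CPM in ANS4 and 136 and 125 CPM in BL6. In BMP/FGF it was 97.3 and 91.1 CPM in ANS4 and 93.7 and 87.6 CPM in BL6. All 8 quiescent libraries lay below every proliferating one, and the highest BMP/FGF library lay just below the lowest BMP library. Dnmt1 was 3.59-fold lower in BMP than in EGF/FGF, a log2 fold change of -1.84 (SE 0.08, edgeR adjusted p = 2.82e-13), and 4.52-fold lower in BMP/FGF (log2 -2.18, SE 0.08, edgeR adjusted p = 3.85e-14). The further difference of BMP/FGF from BMP was small, at -0.33 (SE 0.08, edgeR adjusted p = 0.0022). With the ANS4 libraries alone this last difference was -0.14 and not called (edgeR adjusted p = 0.121).

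Uhrf1, which brings DNMT1 to replicated DNA (chr17:56303321-56323486, plus strand, GRCm38), fell further than Dnmt1 and stepped down again between the quiescent states. Its level in EGF/FGF was 183 and 194 CPM in ANS4 and 207 and 205 CPM in BL6. In BMP it was 30.3 and 32.7 CPM in ANS4 and 31.6 and 36.2 CPM in BL6. In BMP/FGF it was 17.8 and 19.7 CPM in ANS4 and 19.2 and 17.8 CPM in BL6. The 3 conditions formed 3 separate levels, with the lines close together in each. Uhrf1 was 6.02-fold lower in BMP than in EGF/FGF (log2 -2.59, SE 0.07, edgeR adjusted p = 4.83e-16) and 10.6-fold lower in BMP/FGF (log2 -3.40, SE 0.07, edgeR adjusted p = 9.71e-17). Between the quiescent states it was 1.75-fold lower in BMP/FGF (log2 -0.81, SE 0.07, edgeR adjusted p = 1.1e-07).

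Both genes are known targets of E2F factors, which switch on genes at the start of S phase, so the promoter windows of the members were searched for the E2F words TTTCCCGC, TTTCGCGC, TTTGCCGC and TTTGGCGC on both strands. The windows came from RefSeq on GRCm38.p6 and run from 250 bases before to 50 after a start site, and 8 of the 9 members had windows, all but Mbd2. Of 32851 windows of all genes, 744 held a word (2.26%), and among the members only windows of Dnmt1 and Uhrf1 did. The stretches below show those words in capitals, 5′ to 3′ along the gene, because these members fell most. No word overlapped another.
Dnmt1, chr9:20952824-20952853, minus strand, word on the opposite strand 219 bases before the start: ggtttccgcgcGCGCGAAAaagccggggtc
Dnmt1, chr9:20952574-20952601, minus strand, word 33 bases after the start: gcggggcagcgTTTGGCGCgggctgtgc
Uhrf1, chr17:56304117-56304146, plus strand, word 185 bases before the start: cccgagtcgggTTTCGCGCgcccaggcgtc

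The Dnmt1 words belong to the third of 3 windows of that gene, and the other 2 windows held none. In GENCODE vM21 the upstream Dnmt1 word lies in a UTR exon of 1 of the 2 coding transcripts that span it, and the downstream word in UTR exons of 2 of 4. The Uhrf1 word lies in the second of 2 windows and in an intron of both coding transcripts that span it. The 13 windows of the 8 members held 2 to 57 CG dinucleotides each, with 33 in each of those that held an E2F word, against a median of 7 over all windows. A match describes the letters of the window and was not tested as a binding site.

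Uhrf2 (chr19:30030513-30093722, plus strand, GRCm38) fell less than its relative and did not follow it between the quiescent states. Its level was 85.2 and 85.1 CPM in ANS4 EGF/FGF and 88.3 and 92.4 CPM in BL6 EGF/FGF. It was 54 and 51.1 CPM in ANS4 BMP, 69 and 57.7 CPM in BL6 BMP, 58.9 and 62.7 CPM in ANS4 BMP/FGF and 62.9 and 63.1 CPM in BL6 BMP/FGF. Both quiescent states lay below every EGF/FGF library and overlapped each other. The log2 fold change was -0.60 in BMP (SE 0.07, edgeR adjusted p = 2.04e-07) and -0.50 in BMP/FGF (SE 0.07, edgeR adjusted p = 2.09e-06). BMP/FGF against BMP gave 0.10 (SE 0.07) and was not called (edgeR adjusted p = 0.26). Without BL6 BMP replicate 1, the highest BMP library, that value was 0.18 and was called (edgeR adjusted p = 0.0259), and it was also called with ANS4 alone (0.21, edgeR adjusted p = 0.0218).

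The fall of the maintenance genes accompanied a fall of the replication programme. Mki67, a marker of cycling cells, went from 656 ± 137 CPM (SD, n = 4) in EGF/FGF to 91.4 ± 38 in BMP and 46.2 ± 3.5 in BMP/FGF. All 23 listed S-phase genes were lower in BMP than in EGF/FGF, with a median log2 fold change of -2.15 beside 0.02 over all tested genes, and 22 of 23 were lower again in BMP/FGF than in BMP (median -0.67, all genes 0.00). Tk1, a nucleotide salvage kinase, fell most on entry into BMP (log2 -3.50), followed by Mcm3, a subunit of the replicative helicase (-2.62), and Ccna2, the S-phase cyclin A2 (-2.58). Cdc6 and Cdt1, which load the helicase, and Ccna2 differed most between the quiescent states (-1.08, -1.02 and -1.08). The summed S-phase level was 2993 to 3413 CPM in EGF/FGF, 679 to 809 CPM in BMP and 491.5 to 520 CPM in BMP/FGF. The part of the S-phase programme in the changes of Dnmt1 and Uhrf1 was not tested.

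Dnmt3a (chr12:3806007-3914443, plus strand, GRCm38), a de novo methyltransferase, rose modestly in BMP and stood near its proliferating level in BMP/FGF. It was 115 and 118 CPM in ANS4 EGF/FGF and 113 and 107 CPM in BL6 EGF/FGF. In BMP it was 135 and 133 CPM in ANS4 and 148 and 135 CPM in BL6, above every other library. In BMP/FGF it was 113 and 118 CPM in ANS4 and 121 and 119.6 CPM in BL6, a range that overlapped EGF/FGF. The rise in BMP was 1.22-fold (log2 0.28, SE 0.06, edgeR adjusted p = 0.000179), and BMP/FGF was lower than BMP by 1.17-fold (log2 -0.22, SE 0.06, edgeR adjusted p = 0.00436). BMP/FGF against EGF/FGF gave 0.06 (SE 0.06, edgeR adjusted p = 0.341). An antisense gene, Dnmt3aos, overlaps its exons and is not in the table.

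Dnmt3b (chr2:153649450-153687730, plus strand, GRCm38), the other de novo enzyme, was scarce throughout, with 33 to 61 counts per library. It averaged 2.43 ± 0.15 CPM in EGF/FGF, 2.59 ± 0.58 in BMP and 2.97 ± 0.43 in BMP/FGF (SD, n = 4), and all 3 conditions overlapped. No comparison was called, with log2 fold changes of 0.09, 0.29 and 0.21 and an SE of 0.18 each, against 0.06 to 0.08 for the other members. Leaving out BL6 BMP/FGF replicate 2, at 2.35 CPM the lowest of its condition, brought BMP/FGF against EGF/FGF to 0.41 with an edgeR adjusted p of 0.0482.

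Tet1 (chr10:62804570-62908996, minus strand, GRCm38), a dioxygenase that starts demethylation, moved in opposite directions in the quiescent states. It was 38.1 and 35.6 CPM in ANS4 EGF/FGF and 40.2 and 37.7 CPM in BL6 EGF/FGF. In BMP it was 45.9 and 43.3 CPM in ANS4 and 49 and 48.3 CPM in BL6, and in BMP/FGF it was 28.6 and 27.4 CPM in ANS4 and 30.7 and 29.7 CPM in BL6. No library of one condition entered the range of another. Tet1 rose in BMP (log2 0.30, SE 0.06, edgeR adjusted p = 0.000194) and fell in BMP/FGF (log2 -0.38, SE 0.06, edgeR adjusted p = 1.96e-05), and between the quiescent states it was 1.60-fold lower in BMP/FGF (log2 -0.68, SE 0.06, edgeR adjusted p = 1.73e-07).

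Tet3 (chr6:83362373-83459084, minus strand, GRCm38) was lower in BMP/FGF than in either other condition. In EGF/FGF it was 82.3 and 87.7 CPM in ANS4 and 98.2 and 91.1 CPM in BL6. In BMP the lines parted, with 84 and 81.4 CPM in ANS4 and 109.5 and 118 CPM in BL6. In BMP/FGF they came together at 54.5 and 57.9 CPM in ANS4 and 59.9 and 58.2 CPM in BL6, below all other libraries. BMP/FGF was 1.69-fold below BMP (log2 -0.76, SE 0.08, edgeR adjusted p = 5.23e-07) and 1.56-fold below EGF/FGF (log2 -0.64, SE 0.07, edgeR adjusted p = 4.09e-07). BMP against EGF/FGF was 0.12 (SE 0.07, edgeR adjusted p = 0.147) over both lines, and 0.25 with a call in BL6 alone (edgeR adjusted p = 0.00984).

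Tet2 (chr3:133463679-133545139, minus strand, GRCm38) was called in none of the 3 comparisons. It averaged 33.8 ± 3.4 CPM in EGF/FGF, 33.6 ± 5.6 in BMP and 31.3 ± 0.88 in BMP/FGF (SD, n = 4). The log2 fold changes were -0.01 in BMP (edgeR adjusted p = 0.881), -0.10 in BMP/FGF (edgeR adjusted p = 0.274) and -0.09 between the quiescent states (edgeR adjusted p = 0.432), each with an SE of 0.08. In BL6 alone BMP/FGF was below both EGF/FGF (-0.26, edgeR adjusted p = 0.0267) and BMP (-0.29, edgeR adjusted p = 0.0296). An antisense gene, Gm42567, overlaps its exons and is not in the table.

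Mbd2 (chr18:70568189-70626131, plus strand, GRCm38), the reader in the set, was the only member called higher in all 3 comparisons. It was 78.5 and 70 CPM in ANS4 EGF/FGF and 79.8 and 75.1 CPM in BL6 EGF/FGF. In BMP it was 96.3 and 89.6 CPM in ANS4 and 94.8 and 98.5 CPM in BL6, and in BMP/FGF it was 114 and 109.7 CPM in ANS4 and 118 and 119.7 CPM in BL6. The 3 conditions formed an ascending series with no overlap between them. The rise was 1.25-fold in BMP (log2 0.32, SE 0.06, edgeR adjusted p = 4.91e-05) and 1.52-fold in BMP/FGF (log2 0.60, SE 0.06, edgeR adjusted p = 2.07e-08), with a step of 0.28 between them (SE 0.06, edgeR adjusted p = 0.000707).

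**Figure D2:**
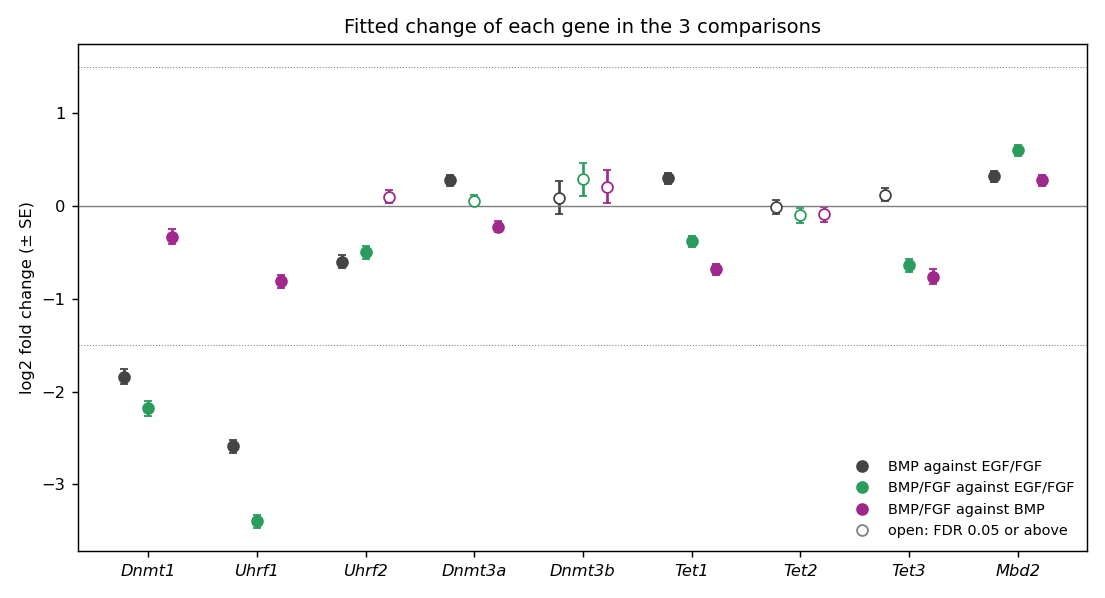
Fitted log2 fold change of each gene (vertical axis, with SE) in the 3 comparisons, filled where the edgeR adjusted p was under 0.05 and with dotted lines at 1.5 in either direction. Only Dnmt1 and Uhrf1 pass the dotted line, and Tet1 lies above 0 in BMP and below 0 in BMP/FGF against EGF/FGF.

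Ratios of counts within a library do not depend on scaling between libraries, and 6 were compared by a two-sided exact permutation test of 4 against 4 libraries, where the smallest possible p is 0.0286. Adjusted over the 18 tests, that p is 0.0468, and 11 ratio differences reached it. The adjusted value depends on how many tests reach the smallest p, so these 11 pass or fail together. They also share genes and libraries. Dnmt1 lost ground to Dnmt3a, with log2 Dnmt1/Dnmt3a going from 1.89 ± 0.16 (SD, n = 4) in EGF/FGF to -0.24 ± 0.16 in BMP and -0.35 ± 0.10 in BMP/FGF. Uhrf1 lost ground to Uhrf2, from 1.17 ± 0.05 to -0.82 ± 0.22 and -1.73 ± 0.06. Both changes against EGF/FGF had an adjusted exact permutation p of 0.0468 for each ratio, and between the quiescent states this held for Uhrf1/Uhrf2 and not for Dnmt1/Dnmt3a (adjusted p = 0.242 by the same permutation test).

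Uhrf1 fell relative to its partner, with log2 Dnmt1/Uhrf1 at 1.09 ± 0.06 in EGF/FGF, 1.83 ± 0.21 in BMP and 2.31 ± 0.10 in BMP/FGF (adjusted exact permutation p = 0.0468 in all 3 comparisons). Among the erasers, Tet2 gained on Tet3 in BMP/FGF, with log2 Tet2/Tet3 at -1.41 ± 0.07, -1.54 ± 0.16 and -0.88 ± 0.08, and BMP/FGF differed from both other conditions (adjusted exact permutation p = 0.0468). Tet1/Tet3 was -1.24 ± 0.09, -1.06 ± 0.20 and -0.99 ± 0.07, and passed for BMP/FGF against EGF/FGF (adjusted exact permutation p = 0.0468) and not for the others (0.24 and 0.571). Dnmt3a/Dnmt3b was 5.52 ± 0.13, 5.75 ± 0.31 and 5.31 ± 0.23, and no test of it passed (adjusted exact permutation p = 0.129 or above). All ratios are of counts not divided by transcript length, so their change between conditions is given and not which gene is higher.

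**Figure D3:**
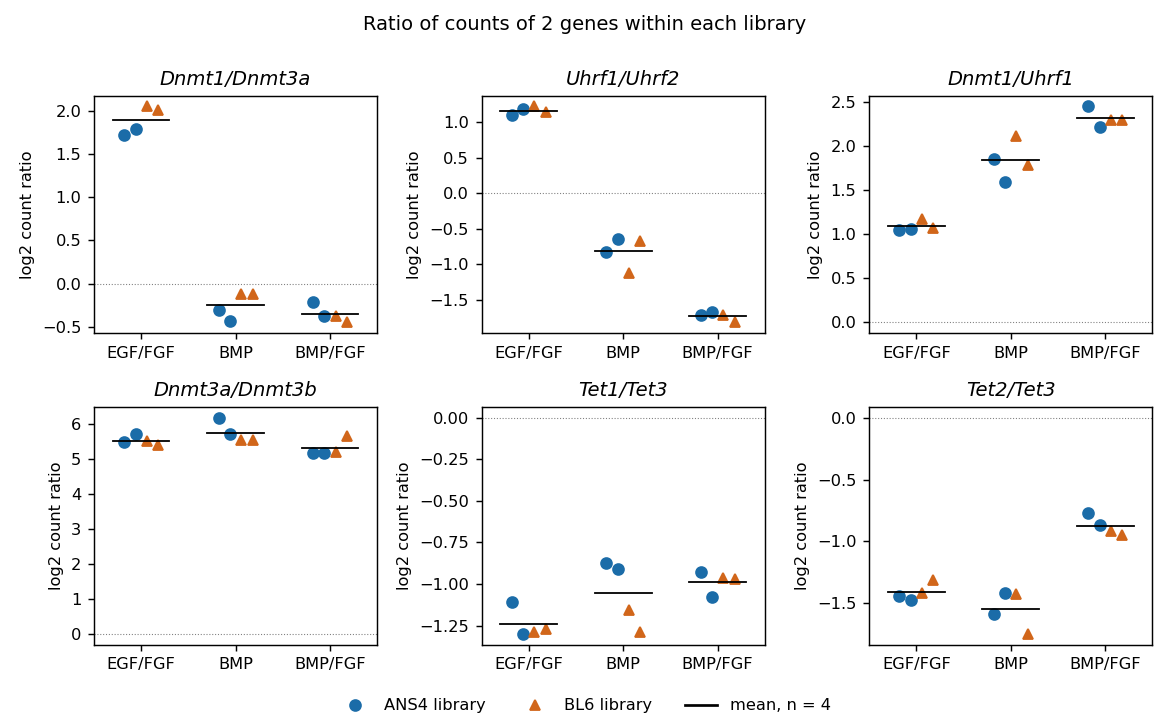
Log2 ratio of the counts of 2 genes (vertical axis) in each library by condition, with circles for ANS4, triangles for BL6, black bars for means of 4 libraries and dotted lines at 0. Dnmt1/Dnmt3a and Uhrf1/Uhrf2 drop on entry into quiescence, while Dnmt1/Uhrf1 rises at each step and Tet2/Tet3 is highest in BMP/FGF.

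The lines differed in the response of 3 members to FGF2 under BMP4, and no line difference was called on entry into BMP. For BMP against EGF/FGF, 0 of the 9 members had a line difference at FDR under 0.05 by the edgeR interaction test or by DESeq2, and 1 had an unadjusted p under 0.05 (Tet3). The line difference is the BL6 change minus the ANS4 change. The background was 9.02% of genes, 718 with a positive difference and 483 with a negative one (892 and 365 without TMM factors). For BMP/FGF against BMP, 3 members had a line difference, against 13.5% of all genes, 888 with a positive difference and 913 with a negative one (544 and 1401 without TMM factors). Dnmt1 fell by 0.53 in BL6 and by 0.14 in ANS4 on the log2 scale (difference -0.39, SE 0.11, edgeR adjusted p = 0.0239). Tet3 fell by 0.95 in BL6 and by 0.56 in ANS4 (difference -0.39, SE 0.10, edgeR adjusted p = 0.0161). Tet2 was -0.30 in BL6 and 0.12 in ANS4 (difference -0.42, SE 0.13, edgeR adjusted p = 0.0332).

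In all 3 genes BL6 lay above ANS4 without overlap in both EGF/FGF and BMP, and the lines were close together in BMP/FGF. Uhrf2, which had no line difference called, also had BL6 above ANS4 without overlap in EGF/FGF and in BMP. The share of all genes with this pattern was not counted. The line means of Tet3 were 82.7 CPM in ANS4 and 114 CPM in BL6 in BMP, and those of Dnmt1 were 104 and 131 CPM. In the same BMP libraries the neuron markers summed to 298 to 302 CPM in ANS4 and 591 to 600 CPM in BL6, the S-phase genes to 679 to 694.5 CPM and 791.5 to 809 CPM, and Mki67 was 54.6 to 63.2 CPM and 118 to 130 CPM. The part of these in the line differences was not tested. Each call rests on 2 libraries per group and was lost on leaving out single libraries. For Dnmt1 these were ANS4 BMP replicate 2 (-0.31, edgeR adjusted p = 0.109), ANS4 BMP/FGF replicate 1 (-0.32, 0.13), BL6 BMP/FGF replicate 1 (-0.42, 0.0566) and BL6 BMP/FGF replicate 2 (-0.33, 0.131).

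For Tet3 they were ANS4 BMP replicate 2 (-0.36, edgeR adjusted p = 0.0584), ANS4 BMP/FGF replicate 2 (-0.35, 0.0793), BL6 BMP/FGF replicate 1 (-0.39, 0.0575) and BL6 BMP/FGF replicate 2 (-0.36, 0.0846). For Tet2 they were ANS4 BMP replicate 1 (-0.35, edgeR adjusted p = 0.13), BL6 BMP replicate 1 (-0.31, 0.0705) and each of the 4 BMP/FGF libraries (-0.44 to -0.37, 0.0806 to 0.14), and its call was also lost with DESeq2 (adjusted p = 0.0627) and with only the 8 libraries compared (edgeR adjusted p = 0.062). Leaving out a library also gained calls. Uhrf2 had a line difference without BL6 BMP replicate 2, at 0.31 for BMP against EGF/FGF (edgeR adjusted p = 0.0423) and -0.34 for BMP/FGF against BMP (0.0193), and Tet3 had one for BMP against EGF/FGF without BL6 BMP replicate 1 (0.36, 0.0125).

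**Figure D4:**
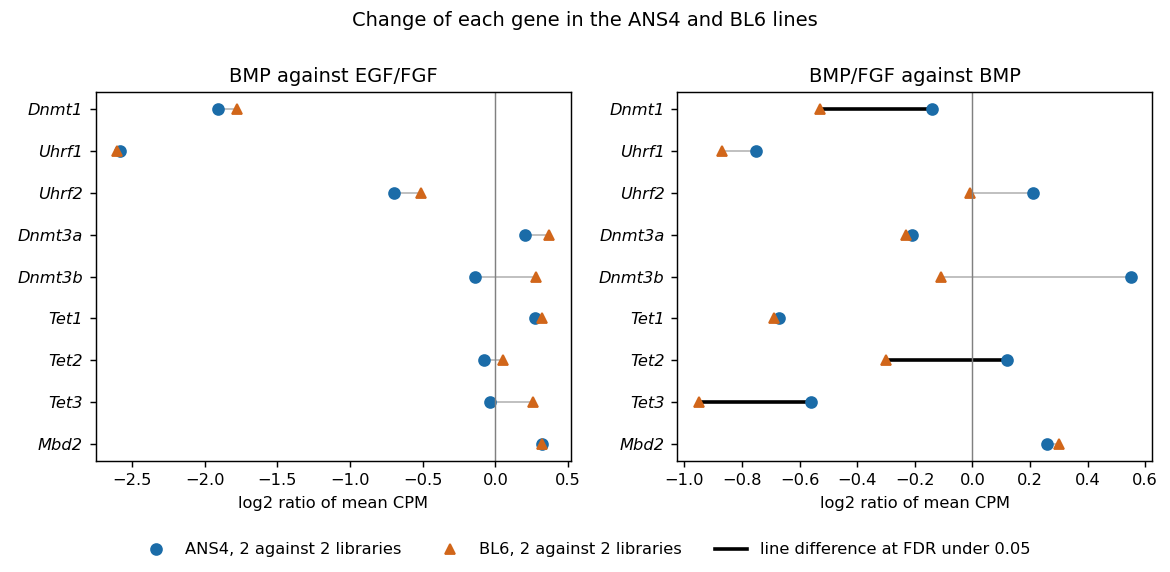
Log2 ratio of mean CPM (horizontal axis) of each gene in ANS4 (circles) and BL6 (triangles), 2 against 2 libraries, with black connecting lines where the line difference had an edgeR adjusted p under 0.05. For BMP/FGF against BMP the BL6 values of Dnmt1, Tet2 and Tet3 lie to the left of ANS4, and for BMP against EGF/FGF no connecting line is black.

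Among the partners of the maintenance enzymes, 8 of 11 were lower and 1 higher in BMP than in EGF/FGF (median log2 -1.14, all tested genes 0.02), and 8 were lower and 0 higher in BMP/FGF than in BMP (median -0.34, all genes 0.00). Beside these and the list counts below, 38.8% of all tested genes were lower and 40.8% higher in BMP against EGF/FGF. In BMP/FGF against BMP the shares were 21.3% and 20.1%. Pclaf, a PCNA-binding protein, fell from 152 ± 16 CPM in EGF/FGF to 26.9 ± 2 CPM in BMP (log2 -2.50). Hells, the remodeller that opens chromatin to methylation (-2.41), and Lig1, the ligase of lagging strands that binds UHRF1 (-2.40), fell by like amounts. Cdca7, which recruits HELLS, differed most between the quiescent states, from 79.2 ± 15 CPM in BMP to 34.2 ± 4.9 CPM in BMP/FGF (log2 -1.20, edgeR adjusted p = 3.27e-07).

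All 7 tested of 8 partners and regulators of the de novo enzymes were lower in BMP than in EGF/FGF (median log2 -0.54 beside the same 0.02), while Dnmt3a rose. They included Trim28, a corepressor that brings silencing to repeats (-0.78), Mphosph8 of the HUSH silencing complex (-0.72) and Setdb1, a histone H3 lysine methyltransferase (-0.56). Of these 7, 3 were lower again in BMP/FGF (Trim28 -0.41, Nsd2 -0.29 and Nsd1 -0.24, the last 2 being H3K36 methyltransferases) and 0 were higher. Of 4 tested TET partners, 2 rose in BMP, where 40.8% of all genes were higher, so this number is close to the background. They were Ogt, the O-GlcNAc transferase that binds TET proteins (log2 0.37), and Cxxc5, a CXXC-domain protein (0.22). In BMP/FGF against BMP, 3 of the 4 were lower, as were Tet1 and Tet3, namely Cxxc4 (-0.63), Qser1 (-0.59) and Cxxc5 (-0.48).

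Of 9 methyl-CpG readers other than Mbd2, 6 were higher, 1 was lower and 2 were not called in BMP against EGF/FGF (median log2 0.41), where 40.8% of all genes were higher. Zbtb4, a zinc finger reader, had the largest change, from 14.1 ± 2.9 to 40.4 ± 1.2 CPM (log2 1.52). Mbd4, a reader and glycosylase, also rose, from 11.4 ± 1.3 to 17 ± 2 CPM (0.58). In BMP/FGF against BMP, 5 were lower and 0 higher (median -0.23), among them Mbd6 (-0.41) and Mbd5 (-0.41), while Mbd2 rose. Among the NuRD subunits that work with MBD2, 8 of 11 were lower and 3 higher in BMP (median -0.39) and 5 lower and 0 higher in BMP/FGF against BMP (median -0.17). Cdk2ap1 (-1.46), the histone chaperone Rbbp7 (-1.22) and the deacetylase Hdac2 (-0.68) fell most on entry into BMP, and Mta1 (-0.42), Gatad2b (-0.28) and Hdac2 (-0.23) differed most between the quiescent states.

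**Figure D5:**
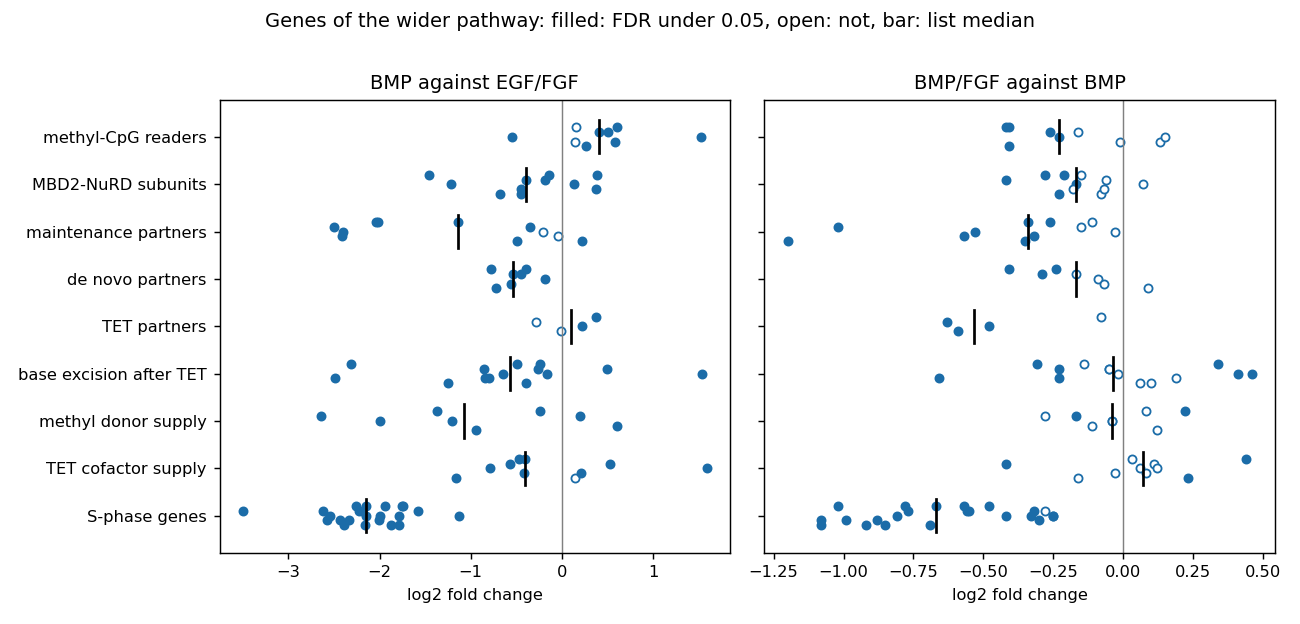
Log2 fold change (horizontal axis, a different range in each panel) of every tested gene of 9 lists around the methylation enzymes, filled at FDR under 0.05, with black bars for list medians. The S-phase genes and maintenance partners lie furthest to the left in BMP against EGF/FGF, and the methyl-CpG readers have the highest median there.

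Base excision genes were mostly lower in BMP than in EGF/FGF, with 12 of 14 lower and 2 higher (median log2 -0.57). Base excision can complete demethylation after TET oxidation, but the list is not limited to genes that act on TET products. The glycosylases Neil3 (-2.49) and Ung (-2.31) fell most, and Gadd45b, a stress-inducible gene linked to demethylation, rose from 7.88 ± 2.1 to 23.2 ± 7 CPM (1.54). Another listed glycosylase, Tdg, fell less (-0.49). Between the quiescent states 3 were higher and 4 lower in BMP/FGF, including Gadd45b (0.46), Neil1 (0.41) and Neil3 (-0.66). Of all genes, 20.1% were higher and 21.3% lower there, so these numbers are close to the background. Genes that supply S-adenosylmethionine were also lower in BMP, with 6 of 8 lower and 2 higher (median -1.07), led by Shmt1 (-2.64), Mtrr (-1.37) and Ahcy, which clears the methylation product and went from 39.8 ± 4.5 to 9.92 ± 1.1 CPM. Between the quiescent states they differed little, with Mat2a, which makes S-adenosylmethionine, higher in BMP/FGF (0.22) and its regulatory subunit Mat2b lower (-0.17).

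TET enzymes use 2-oxoglutarate, and of 10 genes that make or consume it or its analogues, 6 were lower and 3 higher in BMP than in EGF/FGF (median log2 -0.41). Over all genes tested, 38.8% were lower and 40.8% higher in that comparison. D2hgdh, which removes the TET inhibitor D-2-hydroxyglutarate, rose from 6.67 ± 1.2 to 20.1 ± 1.9 CPM (1.59), whereas Fh1 (-1.16) and Idh3a (-0.79), enzymes of the citrate cycle, fell. In BMP/FGF against BMP, the cytosolic Idh1 (0.44) and Fh1 (0.23) were higher and the mitochondrial Idh2 was lower (-0.42). Of 12 germline genes known to be silenced by promoter methylation, 6 were in the table and 3 were tested, and the 6 summed to 5.06 to 5.62 CPM in EGF/FGF, 8.76 to 13.6 CPM in BMP and 12.1 to 15 CPM in BMP/FGF. Sycp3, a component of the meiotic chromosome axis, rose from 4.29 ± 0.17 CPM in EGF/FGF to 10.3 ± 2 CPM in BMP (log2 1.26, edgeR adjusted p = 1.4e-07), and was the only one of the 3 called there. Sycp3 averaged 12 CPM in BMP/FGF and made up most of the sum in each condition. Of the 6, 3 had 3 counts or fewer in every BMP library. In BMP/FGF against EGF/FGF 2 of the 3 were higher, Sycp3 and Ddx4 (log2 0.99 for Ddx4, SE 0.40, edgeR adjusted p = 0.0307). Ddx4 was scarce, at 0.35 ± 0.13 CPM in EGF/FGF and 0.70 ± 0.29 CPM in BMP/FGF, with at most 20 counts. The third, Sycp1, was at log2 0.02 in BMP and -0.06 in BMP/FGF against EGF/FGF. Between the quiescent states the log2 fold changes of Sycp3 and Ddx4 were 0.22 and 0.79 (edgeR adjusted p = 0.157 and 0.115).

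Levels between genes were compared as CPM per kilobase of transcript, a scale on which the length chosen for each gene matters. With the median length of a gene's GENCODE transcripts, the order in EGF/FGF was Dnmt3a (138 ± 5.4 CPM per kb), Mbd2 (100.5 ± 5.8), Dnmt1 (80 ± 7.2), Tet1 (63.3 ± 3.1), Uhrf2 (63 ± 2.5), Uhrf1 (58.1 ± 3.2), Tet3 (18.6 ± 1.4), Tet2 (14.1 ± 1.4) and Dnmt3b (0.594 ± 0.036). The libraries of Tet1 overlapped those of Uhrf2 and of Uhrf1 on this scale, while those of Uhrf2 and Uhrf1 did not overlap each other. In BMP the order was Dnmt3a (168 CPM per kb), Mbd2 (126), Tet1 (77.9), Uhrf2 (41.6), Dnmt1 (22.3), Tet3 (20.3), Tet2 (14), Uhrf1 (9.64) and Dnmt3b (0.631), with Tet3 overlapping both Dnmt1 and Tet2. In BMP/FGF Mbd2 (153) and Dnmt3a (144) overlapped at the top, and Uhrf1 (5.49) stood above only Dnmt3b (0.725).

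With the longest transcript instead, Dnmt1 led in EGF/FGF (71.5 CPM per kb), Mbd2 led in BMP (48.5) and BMP/FGF (59), and Tet1 dropped to the eighth place in all 3 conditions (2.02 to 3.25). Dnmt3b was last with either length in every condition. Annotated transcripts of Tet1 span a median of 599 and a maximum of 14369 bases and those of Dnmt3a a median of 820 and a maximum of 9685, so the place of these genes is not fixed by the counts.

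Over the 12 libraries Dnmt1 and Uhrf1 moved closely together (Pearson r = 0.989 of log2 CPM, a description over libraries that share the 3 conditions), as did Dnmt1 and Uhrf2 (r = 0.919), Tet1 and Tet3 (r = 0.909) and Uhrf1 and Uhrf2 (r = 0.866). Mbd2 ran opposite to Uhrf1 (r = -0.94) and Dnmt1 (r = -0.899). Tet2 and Dnmt3b followed no other member above 0.571. The genes most like Dnmt1 were Cdca7l, Lig1 and Prc1 (r = 0.999, 0.998 and 0.998), and those most like Uhrf1 were Rrm2, Ccne2 and Mcm2 (r = 0.998, 0.998 and 0.997). Uhrf2 was closest to Bdp1 (0.99), 2010300C02Rik (0.986) and Ero1l (0.983), and Dnmt3a to Epha4 (0.969), Zfp516 (0.961) and Tbc1d24 (0.953). Tet1 was closest to Shroom2 (0.978), Ankrd50 (0.971) and Rbfox2 (0.97), Tet2 to Baz2b (0.923), Prkg2 (0.9) and Fam13b (0.895), and Tet3 to Mex3a (0.99), Arid1a (0.987) and Nav1 (0.982). Mbd2 was closest to Spats2l (0.976), Lyrm4 (0.972) and Plcb1 (0.972), and the scarce Dnmt3b had the weakest likeness, with Zfp263 (0.835), Clec2d (0.8) and 1810024B03Rik (0.794).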

How the data were processed

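Low input libraries were sequenced on BGISEQ-500RS. Reads were trimmed by the authors with Trim Galore 0.5.0, and transcript abundance was estimated with kallisto 0.44.0 on mm10. They deposited estimated counts summed per gene as whole numbers, and a second table of log2 values from the regularised logarithm of DESeq2 1.27.32, used here in 1 alternative only. Because kallisto divides reads among transcripts by likelihood, counts of genes with shared sequence are estimates, and strand use is not given in the sources used here.

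From the counts, edgeR 4.0.16 (R 4.3.3) kept genes by filterByExpr, scaled by TMM and fitted glmQLFit to all 12 libraries with condition and line as terms. Line differences used the means of 6 groups. Tests were two-sided, with Benjamini-Hochberg adjustment over 13312 genes. The FDR of 0.05 and the log2 threshold of 1.5 are the study's. Log2 CPM used a prior count of 2, and ratios had 0.5 added to each count. Exact permutation of libraries (log2 of CPM plus 0.1) accompanied each member's fit and gave 0.0286, its smallest possible p, for every member called. The fits and ratio tests were tested on simulated counts. Genes were named by rule: all members, the 3 genes most correlated with each, the 3 largest called changes per list and comparison, and Mki67. Rbfox3 and Ddx4 were named after their values were seen, and the values of 1 gene that the rule names are not reported here. Members and lists were chosen with earlier results of these data known. The replicates are described as biological, without saying how cultures were separated, so p-values measure the spread between these samples.

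Alternatives were DESeq2 1.42.0, its size factors, library size only, no filter, no line term, the replicate block, the 8 libraries compared, each line alone, limma 3.58.1 on the deposited log2 values, other ratio pseudocounts, the longest transcript, and each library left out.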

Additional observations from a re-analysis of the deposited data

Results flagged for a closer look

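In 174 groups of 4 libraries, 9 held 1 library farther from the others than Dixon's 95% limit, which is 5.17% and close to the 1 in 20 that chance gives. Among the members, Uhrf2 was at 58.9 CPM in the first ANS4 BMP/FGF replicate (others 62.7 to 63.1), and Dnmt3a at 148 CPM in BL6 BMP replicate 1 (others 133 to 135). Among ratios, log2 Dnmt3a/Dnmt3b was 5.66 in BL6 BMP/FGF replicate 2 (others 5.18 to 5.21), and log2 Tet1/Tet3 was -1.11 in ANS4 EGF/FGF replicate 1 (others -1.30 to -1.27). Among listed genes, Nsd1 was 187 CPM in BL6 EGF/FGF replicate 2 (others 173 to 175), Idh2 was 208 CPM in ANS4 EGF/FGF replicate 2 (others 184 to 188) and Mtrr was 11.6 CPM in BL6 BMP replicate 2 (others 9.3 to 9.66). In BMP/FGF, Neil3 was 1.62 CPM in BL6 replicate 2 (others 2.18 to 2.26) and Fh1 was 70.3 CPM in ANS4 replicate 1 (others 64.2 to 65.1).

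The effect of FGF2 under BMP4 differed between the lines for Dnmt1 (BL6 minus ANS4 -0.39 on the log2 scale), Tet2 (-0.42) and Tet3 (-0.39) by the edgeR interaction test, with the limits of each call given beside it above.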

How the results depend on the processing

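No member called in the 3 main comparisons reversed under any of the 22 alternatives, and 1 call was lost: Dnmt1 in BMP/FGF against BMP with ANS4 alone (-0.14). Values that changed sign belonged to members not called. With ANS4 alone these were Dnmt3b (-0.14) and Tet3 (-0.04) in BMP against EGF/FGF, Dnmt3a (-0.01) and Tet2 (0.04) in BMP/FGF against EGF/FGF, and Tet2 (0.12) between the quiescent states. With BL6 alone they were Tet2 in BMP against EGF/FGF (0.03), and Uhrf2 (-0.01) and Dnmt3b (-0.11) between the quiescent states. Without TMM factors they were Tet2 in BMP against EGF/FGF (0.01), the line differences of Uhrf1 (0.01) and Mbd2 (0.03) there, and that of Mbd2 between the quiescent states (-0.04). Leaving out single libraries, BMP against EGF/FGF ran from -0.01 to 0.21 for Dnmt3b and from -0.09 to 0.03 for Tet2, and its line differences from -0.12 to 0.07 for Uhrf1, 0 to 0.1 for Tet1 and -0.09 to 0.08 for Mbd2. The line differences between the quiescent states then ran from -0.08 to 0.05 for Dnmt3a, -0.06 to 0.03 for Tet1 and -0.01 to 0.08 for Mbd2.

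Members called higher numbered 1 to 2 in BMP/FGF against EGF/FGF and in BMP/FGF against BMP when single libraries were left out, and 2 in the latter with ANS4 alone. Line differences moved most. For BMP against EGF/FGF, genes higher in BL6 numbered 718, 365 with only the 8 libraries compared and 359 to 1351 without single libraries, and those lower 483, 250 and 235 to 1086. Members with a positive difference there numbered 0, and 1 without TMM factors. For BMP/FGF against BMP the genes higher numbered 888, 544 without TMM factors and 464 to 1484 without single libraries, those lower 913, 1401 and 425 to 1349, and members lower 3 and 0 to 4 without single libraries. The cause was not tested. Leaving out a library leaves 1 in a group of the line test, and the fit then assumes that it varies like the others. No counts of genes are therefore given for these fits, and their adjusted p-values above share this limit.

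Replicate numbers did not pair the samples (correlations of deviations from -0.0711 to 0.0529). With the replicate block, calls went from 10596 to 10399, 10506 to 10325, 5513 to 5025, 1201 to 1020 and 1801 to 1638 over the 5 tests, and the members called were the same. For ratios, the block (sign flips) cannot go below p = 0.125, permutation within lines not below 0.0556 and 3 against 4 libraries not below 0.0571, so these say nothing of stability, and ratio values kept their direction. The length choice moved 21 of 27 levels per kb. Precision is limited by 2 replicates per line, and for Dnmt3b by its counts.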
